A study of Mus musculus with 2 samples.

Results

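The genes described here are 10 genes of de novo lipogenesis, the synthesis of fatty acids from sugar carbon, chosen by symbol from the 24054 genes of the deposited expression table. They are the enzymes Acly, Acaca, Acacb, Fasn, Scd1 and Elovl6 and the regulators Srebf1, Mlxipl, Thrsp and Lpin1, and all 10 were found. Liver RNA came from male C57BL/6 mice of 8 to 12 weeks. One group was Pgrmc1 KO (Pgrmc1 -/Y), a whole-body deletion made by crossing a floxed allele of the X-linked gene, generated in C57BL/6N mice, to the Sox2-Cre line B6.Cg-Tg(Sox2-cre)1Amc/J, and the other was WT. Each pool combined 2.5 μg of RNA from each of 5 mice of 1 genotype, and 1 library per genotype was sequenced from total RNA. The spread between mice was therefore not measured, differences between the pools have no replicate check, and no p-value was computed. Whether the WT mice were littermates, and the feeding state and hour at which these livers were taken, are not given in the sources used here.

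In the liver, insulin and dietary sugar switch this pathway on after a meal. SREBP-1c, a product of Srebf1, carries the insulin signal, and ChREBP, the product of Mlxipl, carries the sugar signal, and both bind the promoters of the enzyme genes. ATP citrate lyase (Acly) makes cytosolic acetyl-CoA from citrate, acetyl-CoA carboxylase turns it into malonyl-CoA, fatty acid synthase (Fasn) builds palmitate, and an elongase (Elovl6) and a desaturase (Scd1) turn palmitate into longer and monounsaturated fatty acids. Thrsp encodes Spot 14, a small protein that responds to thyroid hormone and carbohydrate and promotes lipogenesis. Lpin1 encodes lipin 1, a phosphatidate phosphatase of triglyceride synthesis that also acts in the nucleus as a transcriptional coregulator.

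Expression was measured as TPM, a level corrected for gene length and library size, and the change of a gene is log2((KO TPM + 1)/(WT TPM + 1)). Coordinates are on GRCm38. A gene was said to have risen with a fold of at least 1.4 on that scale and to have fallen with a fold of at most 0.6, with a TPM above 0 in both libraries. Intervals are 95% Clopper-Pearson intervals of the log2 ratio of the authors' means (reads divided by a size factor), from estimated reads, and they cover counting error only. The libraries held an estimated 22086707 reads in KO and 29710376 in WT. Pgrmc1, the targeted gene (Entrez 53328, chromosome X, 36598193 to 36606079), had 0.68 TPM in the KO pool and 949.49 in the WT pool, as the labels say. The hepatocyte markers were abundant in both pools, summing to 91110 TPM in KO and to 94501 in WT.

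Of the 10 genes, 2 fell in the KO library, Thrsp and Lpin1, and 0 rose. The 10 genes were chosen with earlier results of these data known, so the shares of all genes that follow serve as description only. Among the 11623 genes averaging 1 TPM or more over both pools, 0.301% fell and 1.09% rose by the same limits, and among the 6235 genes averaging 10 TPM or more, where all 10 genes lie, 0.273% fell. With the mirror of the rise (1 divided by 1.4, or 0.714) as the limit for a fall, Scd1 passed as well, which makes 3 of 10 genes against a background of 1.02%. The change was below 0 for 8 of the 10 genes, beside 57.8% of genes averaging 10 TPM or more. The median change was -0.27, and that of all genes averaging 1 TPM or more was -0.01. The counting interval lay below 0 for 7 genes and above 0 for Mlxipl, and it held 0 for Acacb and Srebf1. In genes averaging 10 TPM or more an interval clear of 0 was common, with 18.8% of intervals below 0 and 14.5% above. Fewer cells of a type and less RNA per cell cannot be told apart in these pools.

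**Figure D1:**
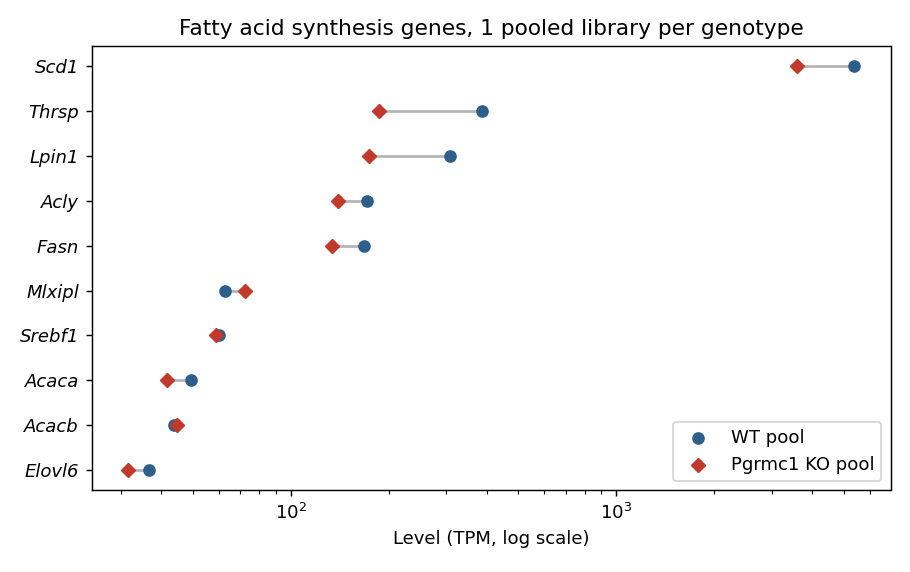
Level of each of the 10 genes in TPM (log scale) in the WT pool (blue circles) and the Pgrmc1 KO pool (red diamonds), 1 library per genotype, in the order of the WT level. The KO value lies left of the WT value for 8 genes, widest for Thrsp (186.89 against 387.02 TPM), and right of it for Mlxipl and Acacb.

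Thrsp (Entrez 21835, chromosome 7, 97412933 to 97417550) showed the lowest change of the 10 genes. Its level was 186.89 TPM in the KO pool and 387.02 in the WT pool, so that it fell to 0.484-fold, or -1.05 on the log2 scale (counting interval -1.10 to -0.96, on 2283 and 6296 estimated reads). Counted from the lowest, Thrsp ranked 7 among the 6235 genes averaging 10 TPM or more. Lpin1 (Entrez 14245, chromosome 12, 16535669 to 16653903) was at 173.38 TPM in the KO pool and 307.53 in the WT pool. It fell to 0.565-fold, or -0.82 on the log2 scale (interval -0.85 to -0.79), and ranked 13 from the lowest. Both genes were also the most abundant members after Scd1, in either library, and the lowest of the 4 read estimates behind their falls was 2283. Neither shared any 100-base stretch of its transcripts with another annotated gene.

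The promoters of these 2 genes, and that of Mlxipl, the member with the highest change, are shown because these are the 2 lowest changes and the highest. Each window, from the RefSeq promoter table on GRCm38.p6, runs from 250 bases before to 50 bases after an annotated start. The Thrsp window is chr7:97417501-97417800 on the minus strand, and the Lpin1 window is chr12:16610917-16611216 on the minus strand. The Lpin1 window lies inside the span of the gene given above, whose upstream end is at 16653903, and the sequence at that end was not searched. Mlxipl has a pair of annotated starts, and its windows are chr5:135089640-135089939 and chr5:135106641-135106940, both on the plus strand. Capitals mark matches, on either strand, to the motifs searched: the sterol response element TCACNCCAC bound by SREBP, the E-box CACGTG (a core of ChREBP and clock factor sites), the NF-Y box CCAAT, the GC box GGGCGG, the nuclear receptor motif AGGTCA, the LXR element (AGGTCA repeated after 4 bases, so that each copy is also counted alone) and the D-box TTANGTAA.
Thrsp: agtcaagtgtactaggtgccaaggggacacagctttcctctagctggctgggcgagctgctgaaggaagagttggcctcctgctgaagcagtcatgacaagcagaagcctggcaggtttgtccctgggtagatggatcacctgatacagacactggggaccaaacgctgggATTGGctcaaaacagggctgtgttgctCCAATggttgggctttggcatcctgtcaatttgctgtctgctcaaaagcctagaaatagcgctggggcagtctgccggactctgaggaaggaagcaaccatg
Lpin1: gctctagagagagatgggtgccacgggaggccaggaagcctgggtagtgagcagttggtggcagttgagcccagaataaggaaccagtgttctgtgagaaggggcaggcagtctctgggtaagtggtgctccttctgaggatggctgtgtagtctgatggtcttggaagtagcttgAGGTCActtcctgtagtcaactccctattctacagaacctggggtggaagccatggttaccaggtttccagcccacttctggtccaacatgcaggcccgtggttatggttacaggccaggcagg
Mlxipl first start: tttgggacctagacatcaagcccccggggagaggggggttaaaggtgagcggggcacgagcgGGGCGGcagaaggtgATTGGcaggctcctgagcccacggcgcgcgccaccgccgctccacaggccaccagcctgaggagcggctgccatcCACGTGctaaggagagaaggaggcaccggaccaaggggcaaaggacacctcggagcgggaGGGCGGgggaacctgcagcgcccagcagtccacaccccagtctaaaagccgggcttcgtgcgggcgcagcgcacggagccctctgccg
Mlxipl second start: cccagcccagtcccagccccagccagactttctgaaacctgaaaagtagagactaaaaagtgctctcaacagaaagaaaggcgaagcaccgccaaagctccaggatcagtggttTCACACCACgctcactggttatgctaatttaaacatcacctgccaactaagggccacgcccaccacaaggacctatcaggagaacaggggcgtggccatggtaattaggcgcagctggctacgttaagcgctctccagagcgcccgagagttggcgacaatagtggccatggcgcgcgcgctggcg

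In the Thrsp window the NF-Y box occurred at both -79 and -52 (distance of the first base from the start), and in the Lpin1 window the marked letters are an AGGTCA at -74. The window at the upstream start of Mlxipl held an E-box at -98, an NF-Y box at -173 and GC boxes at -188 and -38, and that at the downstream start held a sterol response element at -136. The table held windows for 9 of the 10 genes, 12 windows in all. Scd1 had no entry. The NF-Y box was found in 7 of the 12 windows (Acacb, Acly, Fasn, Mlxipl, Srebf1 and Thrsp), and 37.4% of all 32851 windows hold it. The GC box was found in 4 windows and in 35.7% of all windows, and AGGTCA in 4 windows and in 16.3%. The sterol response element (1.24% of all windows) and the E-box (7.15%) were each found in 1 window, both of Mlxipl, while the D-box (2.32%) and the LXR element (0.0152%) were found in 0. These matches describe letters in a short window, and binding was not measured.

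Among the enzymes, Scd1 (Entrez 20249, chromosome 19, 44394450 to 44407709), the desaturase that makes oleate and palmitoleate, was by far the most abundant. It stood at 3592.51 TPM in the KO pool and 5380.49 in the WT pool, 33.2% lower on the TPM + 1 scale. Its log2 value was -0.58, and the log2 ratio of the authors' means was -0.57 (interval -0.58 to -0.56). Counted from the lowest, it ranked 29 among genes averaging 10 TPM or more, and at 0.668-fold it did not reach the limit of 0.6. Its share of all TPM was 0.357% in KO and 0.541% in WT, and it ranked 37 in abundance in KO and 24 in WT. Of its 100-base windows, 2.58% were shared with other genes, Scd2, Scd3 and Scd4 among them. These relatives were far lower, with Scd2 at 1.81 TPM in the KO pool and 2.46 in the WT pool and Scd3 and Scd4 at 0.20 TPM or less.

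Fasn and Acly, which act in sequence before desaturation, were lower by a similar amount. Fasn (chromosome 11, 120805958 to 120825166) was at 133.61 TPM in the KO pool and 168.16 in the WT pool, a difference of -0.33 on the log2 scale (interval -0.35 to -0.30). Acly (chromosome 11, 100476352 to 100528000) was at 139.17 TPM in the KO pool and 171.04 in the WT pool, a difference of -0.30 on the log2 scale (interval -0.33 to -0.25). These 2 genes were thus close to equal in level, and the ratio of Acly to Fasn was 1.04 in KO and 1.02 in WT. Neither passed a fold limit, and they ranked 151 and 196 from the lowest of the 6235 genes.

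The 2 acetyl-CoA carboxylases differed in direction, 1 of them with an interval that held 0. Acaca (chromosome 11, 84129635 to 84401651) encodes the cytosolic form, which supplies malonyl-CoA to fatty acid synthase. It stood at 41.64 TPM in the KO pool and 49.41 in the WT pool, a difference of -0.24 on the log2 scale (interval -0.29 to -0.19). Of its 100-base windows, 23.7% were shared with the copies Gm42553 and Gm5182 annotated in GENCODE M21. Whether the gene set used by RSEM held these copies, and so divided reads among them, was not checked. Acacb (chromosome 5, 114146321 to 114250761) encodes the form at the outer mitochondrial membrane, whose malonyl-CoA restrains the entry of fatty acids for oxidation. It stood at 44.75 TPM in the KO pool and 43.78 in the WT pool, a difference of 0.03 on the log2 scale with an interval, -0.01 to 0.09, that held 0. The ratio of Acaca to Acacb was 1.13 in WT and 0.931 in KO, and this was the single place where the order of the 10 levels differed between the libraries. In both libraries the order was otherwise Scd1, Thrsp, Lpin1, Acly, Fasn, Mlxipl and Srebf1 at the top and Elovl6 last.

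Elovl6 (chromosome 3, 129532386 to 129638495), which lengthens palmitate to stearate, was at 31.59 TPM in the KO pool and 36.73 in the WT pool. Its log2 change was -0.21 (interval -0.28 to -0.14), inside the range of -0.25 to 0.20 between the 5th and 95th percentiles of genes averaging 10 TPM or more. Summed over the 6 enzymes, the level was 3983.27 TPM in the KO pool and 5849.61 in the WT pool, a ratio of 0.681. Scd1 made up most of both sums. Without it the remaining 5 enzymes summed to 390.76 TPM in the KO pool and 469.12 in the WT pool, a ratio of 0.833.

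**Figure D2:**
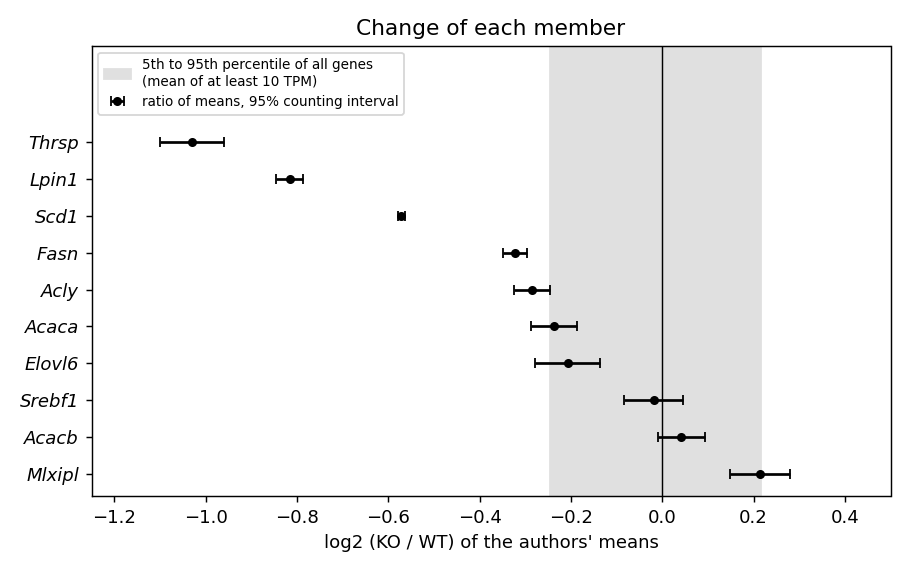
Log2 ratio of the authors' means (KO over WT) of each of the 10 genes, points with 95% counting intervals, 1 library per genotype. The grey band runs from the 5th to the 95th percentile of all genes averaging 10 TPM or more on the same ratio. Thrsp, Lpin1 and Scd1 lie clearly left of the band, Fasn and Acly lie closer to its left edge but still outside, and Acaca lies just inside that edge. The intervals of Srebf1 and Acacb hold 0.

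Of the genes of the 2 transcription factors, Srebf1 had a change near 0 and Mlxipl a change above 0. Srebf1 (chromosome 11, 60199084 to 60224186) stood at 59.07 TPM in the KO pool and 60.33 in the WT pool, a difference of -0.03 on the log2 scale with an interval of -0.08 to 0.04. The table gives 1 value per gene, so the SREBP-1a and SREBP-1c transcripts were not separated, and the processing of the SREBP precursor, which controls its activity, does not show in RNA. Mlxipl (chromosome 5, 135089890 to 135139768) was at 72.20 TPM in the KO pool and 62.77 in the WT pool. Its log2 change of 0.20 (interval 0.15 to 0.28) was the highest of the 10 genes and did not reach the limit for a rise, at 1.15-fold. It ranked 5926 from the lowest of 6235 genes. The ratio of Mlxipl to Srebf1 was 1.04 in WT and 1.22 in KO. Exons of Srebf1 overlap those of Rai1 on the opposite strand over 109 bases and Mir6922 on the same strand over 66 bases. Exons of Mlxipl overlap Gm43500 on the opposite strand over 235 bases.

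**Figure D3:**
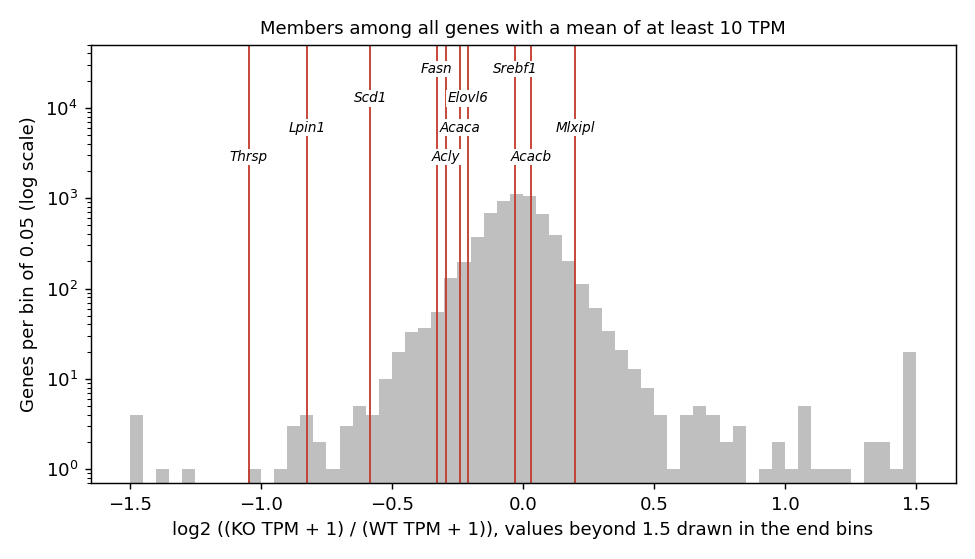
Number of genes (log scale) by change, log2((KO TPM + 1)/(WT TPM + 1)), for the 6235 genes averaging 10 TPM or more (grey bars), with the 10 genes marked as red lines and genes beyond either end drawn in the end bars. Thrsp, Lpin1 and Scd1 stand in the sparse left tail, while Srebf1 and Acacb stand at the centre and Mlxipl at the right shoulder.

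The closest relatives of the 10 genes were compared with them. Mid1ip1, the paralog of Thrsp and like it a lipogenic cofactor, was at 24.48 TPM in the KO pool and 29.05 in the WT pool, a difference of -0.24 on the log2 scale (counting interval -0.38 to -0.09), against -1.05 for Thrsp. The ratio of Thrsp to Mid1ip1 was 13.3 in WT and 7.63 in KO. Lpin2, the other abundant lipin of the liver, was at 159.32 TPM in the KO pool and 219.30 in the WT pool, a difference of -0.46 on the log2 scale (interval -0.48 to -0.42). Its change was in the direction of that of Lpin1 and within the fold limits, and the ratio of Lpin1 to Lpin2 was 1.402 in WT and 1.088 in KO. Lpin3 was low, at 2.86 TPM in the KO pool and 3.64 in the WT pool. The elongases Elovl5 (-0.04), Elovl2 (-0.12), Elovl3 (0.04) and Elovl1 (0.03), which act on other fatty acids, had values closer to 0 than Elovl6 (-0.21), while Elovl7 was at 0.22 TPM in the KO pool and 0.15 in the WT pool. Srebf2, the SREBP gene of cholesterol synthesis, was at 14.68 TPM in the KO pool and 14.75 in the WT pool. Mlxip, the relative of Mlxipl, was at 4.20 TPM in the KO pool and 4.71 in the WT pool. Of these 13 relatives, 10 averaged 1 TPM or more, and 0 of the 10 rose or fell. Among all genes averaging 1 TPM or more, 1.09% rose and 0.301% fell, so a count of 0 of 10 is near the background. The median change of the 10 relatives was -0.13. That median was -0.04 over the relatives averaging 10 TPM or more, and also over all 13, and -0.06 with 10 TPM added in place of 1.

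The genes that supply carbon and NADPH to the pathway lay below 0 throughout, although 0 of the 13 passed a fold limit. Their median change was -0.13, and the counting interval lay below 0 for 10 of the 13 and held 0 for 3. Among all genes averaging 10 TPM or more, 57.8% of changes and 18.8% of intervals lay below 0. Among all genes averaging 1 TPM or more, 0.301% fell and 1.09% rose, so a count of 0 at these limits in lists of this size is near the background. At the mirrored limit for a fall, 2 of the 13 passed, beside 1.02% of all genes averaging 1 TPM or more. The lowest change of the list was that of G6pdx, the first enzyme of the pentose phosphate pathway, at 2.96 TPM in the KO pool and 5.18 in the WT pool. Its value of -0.64 rests on 101 and 238 estimated reads, and with 0.1 TPM added in place of 1 it passed the limit for a fall. Malic enzyme (Me1), a source of NADPH, stood at -0.33, and liver pyruvate kinase (Pklr), a known ChREBP target, at -0.28 (interval -0.34 to -0.21). Slc25a1, the carrier that exports citrate from mitochondria, was at 182.32 TPM in the KO pool and 193.52 in the WT pool (-0.09), and citrate synthase (Cs) had the highest change of the list, -0.02.

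Genes that control the activity of SREBP-1, ChREBP and their partner receptors were spread around 0. Of 22 such genes, 12 lay below 0 and 10 above, 0 passed a fold limit, and the median was -0.01. Beside these counts, 57.8% of all genes averaging 10 TPM or more lay below 0. Of all genes averaging 1 TPM or more, 0.301% fell and 1.09% rose. Insig1, which holds SREBP in the endoplasmic reticulum and is itself an SREBP target, was at 248.17 TPM in the KO pool and 316.99 in the WT pool, a difference of -0.35 on the log2 scale (interval -0.38 to -0.30). Insig2 was at 212.53 TPM in the KO pool and 213.87 in the WT pool. Scap, the escort of SREBP, stood at 0.04, Nr1h3, the gene of the oxysterol receptor LXR alpha, at 0.09, and Mlx, the binding partner of ChREBP, at -0.12. The ends of the list were Ppargc1b, a coactivator, at -0.37, and Hlcs, which attaches biotin to the carboxylases, at 0.22.

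Of the 11 partners of elongation and desaturation, 9 lay below 0 and 0 passed a fold limit, with a median of -0.06. They ranged from -0.29 for Acsl3 to 0.21 for Acsl1, both acyl-CoA synthetases. In glycerolipid synthesis, 9 of 12 genes averaged 1 TPM or more, 5 lay below 0 and 0 passed a limit, with a median of -0.03. The lowest was Gpam, the mitochondrial acyltransferase of the first step and a known SREBP-1 target, at 102.84 TPM in the KO pool and 130.89 in the WT pool (-0.35, interval -0.39 to -0.29), and the highest was Agpat1 at 0.23. Dgat2, which completes triglycerides, stood at -0.10. The separate fatty acid synthesis pathway of mitochondria, which makes the precursor of lipoic acid, had 8 measured genes, of which 6 lay above 0 and 2 below, with a median of 0.04 and a range from -0.07 for Lias to 0.21 for Mecr. As background for these lists, 57.8% of all genes averaging 10 TPM or more lay below 0. Of all genes averaging 1 TPM or more, 0.301% fell and 1.09% rose.

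**Figure D4:**
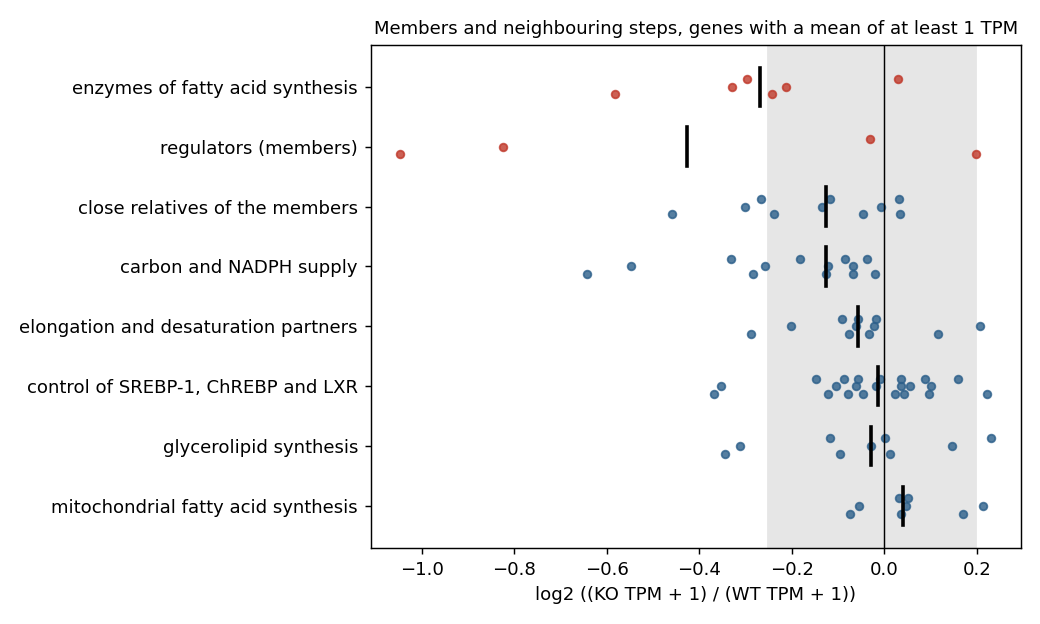
Change, log2((KO TPM + 1)/(WT TPM + 1)), of each gene averaging 1 TPM or more in the members (red) and in 6 lists of neighbouring steps (blue), with the median of each list as a black bar. The grey band runs from the 5th to the 95th percentile of all genes averaging 10 TPM or more (-0.25 to 0.20). The supply list lies below 0 throughout and the mitochondrial list mostly above 0.

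Other transcripts known to vary with feeding and with the hour of day also differed between the libraries, and their part in the values above was not tested. Of 12 genes induced by fasting, whose median was 0.19, 5 rose, namely Irs2 (1.32), Igfbp1 (1.15), G6pc (1.12), Cyp4a14 (0.66) and Pdk4 (0.50), beside 1.09% of all genes averaging 1 TPM or more. The 4 with values below 0 were Fgf21 (-0.73), Ppargc1a (-0.30), Pck1 (-0.21) and Angptl4 (-0.09). The 5 clock genes that peak near dawn had a median of 0.22, and Arntl (0.60) and Npas2 (0.52) rose, 2 of 5 against the same 1.09%, while Clock was lowest at 0.03. Npas2 was close to the minimum level, at 1.52 TPM in KO and 0.76 in WT on 85 and 56 estimated reads. The 9 dusk genes averaging 1 TPM or more had a median of -0.35, with Ciart (-0.57) and Per2 (-0.07) at the ends. Of the 9, 0 passed a limit, and 0.301% of all genes averaging 1 TPM or more fell. The limit for a fall lies further from 0 than that for a rise. At the mirrored limit, Ciart and the fasting gene Fgf21 also passed, beside 1.02% of all genes averaging 1 TPM or more.

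Adipose tissue also expresses fatty acid synthesis genes strongly, and its defining transcripts were near 0 in both libraries. Adipoq was at 0.07 TPM in the KO pool and 0.10 in the WT pool, Lep at 0.02 TPM in both and Plin1 at 0.08 and 0.06 TPM. Of the 8 adipocyte markers, 3 averaged 1 TPM or more, and the list summed to 26.97 TPM in the KO pool and 33.48 in the WT pool. Cfd rose (5.46 TPM in KO, 1.55 TPM in WT) and Fabp4 had a change of -0.62. Their part in the values of the 10 genes was not tested. Of the markers of hepatocytes, Kupffer cells, endothelium, stellate cells and bile duct cells, 0 passed a fold limit. Among all genes averaging 1 TPM or more, 0.301% fell and 1.09% rose by the same limits. At the mirrored limit for a fall, 1.02% of all genes averaging 1 TPM or more passed. Among markers at that level, Lyve1 passed (1 of 6 endothelial), as did Epcam (1 of 4 bile duct) and Fabp4 (1 of 3 adipocyte). Hepatocyte markers had a median of -0.07, from -0.13 for Cps1 to 0.02 for Ahsg, and Kupffer cell markers a median of 0.16, from 0.10 for Vsig4 to 0.19 for Clec4f. Endothelial markers had a median of -0.10 (Lyve1 at -0.60, Stab2 at -0.04), stellate cell markers -0.15 (Des at -0.26, Lrat at 0.17) and bile duct markers -0.07 (Epcam lowest at -0.59).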

How the data were processed

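Pooled liver RNA of Pgrmc1 KO and WT mice was sequenced as 1 library per genotype. According to the submitters' notes and the study's methods, FASTQ files were made with CASAVA 1.8.2, and RSEM 1.2.09 with Bowtie aligned paired reads to mm10 and shared reads between genes. The authors deposited TPM per gene (posterior means), already scaled between the libraries, since the KO column adds up to 1005325 and the WT column to 994702. For 16318 genes the authors also gave an EBSeq signal per library, the reads after division by a size factor. These mean columns carry no genotype in their names, and were assigned from the study's supplementary table, whose named columns hold the same values for 1997 of 1997 genes compared. The other columns of that table, the authors' own fold changes and probabilities, were not used.

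The value of 1 read was taken as the most frequent value of each mean column (1.16 in KO, 0.860 in WT). Within a tolerance of 0.02 reads, 78.6% of the KO column and 75.0% of the WT column came out whole, too few to treat the values as exact counts. The counting intervals nevertheless rounded these estimates to whole reads and used them as counts, so the intervals are approximate. With 1 library per genotype there is no residual spread, and fold limits took the place of a test. The limits follow the size of change that the study used for its gene lists, without its probability.

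The 10 genes and the lists were chosen with earlier results of these data known. Named were the 10 genes, Pgrmc1, relatives of the 10 genes, genes of neighbouring steps, and in each list every gene past a limit and both ends. Adipoq, Lep and Plin1 are named besides, as defining markers of fat, and Ppargc1a, Pck1 and Angptl4, chosen after their values were seen. Some genes that this rule names are not reported here. Of 158 listed symbols, 155 were found, 6 of them by an older symbol from the RefSeq table, a match added after the data were seen. Gene coordinates come from RefSeq (GRCm38, which is mm10). Shared 100-base windows and exon overlaps were computed from GENCODE M21. The calls and intervals were tried on simulated data with counting error only and with planted changes larger than the fold limits. Spread between mice or pools was not simulated, so that trial does not bear on it. As alternatives, 0.1 or 10 TPM was added, the authors' means replaced TPM, changes were centred on the median gene, libraries were rescaled after removal of their 50 most abundant genes, and fold limits and minimum levels were varied. Scripts ran in Python 3.11.15 with scipy 1.17.1, numpy 2.4.6, matplotlib 3.10.9 and pandas 2.3.3.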

Additional observations from a re-analysis of the deposited data

How the results depend on the processing

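No paired analysis was possible because only 1 pool represents a genotype, which also leaves no replicate to omit. Under the pseudocounts of 0.1 and 10 TPM, the authors' means, centring and rescaling, 2 of the 10 genes fell, 0 rose and 8 lay below 0, and the median ran from -0.27 to -0.24. With fold limits of 2 and 0.5, 1 gene (Thrsp) fell, as the stricter limit implies. The log2 ratio of the summed enzymes went from -0.55 to -0.26 without Scd1. In the 6 lists of neighbouring steps, 0 genes passed a limit, against 1 with a pseudocount of 0.1 TPM, 1 with the authors' means and 2 with the mirrored limit. The change of Pgrmc1 was -10.25 with 0.1 TPM, -6.49 with 10 TPM and -10.44 with the authors' means. For single genes among the 10, 47 of 50 alternative values moved by less than their counting error and 3 by more (of Scd1 and Lpin1), with 0 changes of sign, and all 42 list medians moved by less than the counting error of their middle genes, though that of the close relatives ran from -0.14 to -0.04. Mouse-to-mouse spread is unknown here, and depth limits low genes such as G6pdx.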
